A study of Mus musculus with 8 samples.

Results

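MicroRNAs (miRNAs) are RNAs of about the length of a short primer that guide a repressor complex to messenger RNAs, mainly through the bases near their 5′ end called the seed. The values of 4 mature mouse miRNAs were taken: both arms of the miR-126a precursor (miR-126a-3p and miR-126a-5p), and miR-221-3p and miR-222-3p, whose precursors form 1 cluster. They were chosen by probe set identifier, MIMAT0000138_st, MIMAT0000137_st, MIMAT0000669_st and MIMAT0000670_st in that order. The rule did not use their values, though earlier results of these data were known when it was made. These miRNAs are 4 of the 1908 probe sets for mature miRNAs and of the 3222 probe sets in all.

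The hearts came from male C57/BL6 mice with a labelled age of 8 weeks. In the MI+nc group the left anterior descending coronary artery had been ligated to produce a myocardial infarction (MI), and in the Sham+nc group a sham operation had been done. Tissue was taken 21 days after surgery. The group names carry the suffix nc, which the labels leave unexplained, so whether both groups share a further treatment is unknown. Each group has 4 hearts with 1 Affymetrix miRNA 4.0 array each, numbered 1, 4, 5 and 7 in the MI group and 1 to 4 in the sham group. The labels do not give the part of the heart that was sampled, and each array reads RNA of all its cells together.

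miR-126a lies within Egfl7, a gene of endothelial cells, the lining of blood vessels. The 3p arm is known as the typical miRNA of the endothelium. It represses Spred1 and Pik3r2, inhibitors of growth factor signalling, and mice without miR-126 have fragile vessels and survive infarction poorly. The 5p arm is known in mice to repress Dlk1, an inhibitor of endothelial proliferation. miR-221 and miR-222 are made in endothelial cells, smooth muscle cells and other cells, and repress KIT, the stem cell factor receptor, and p27Kip1, a brake on the cell cycle. In cultured endothelial cells they restrain vessel formation, and in vascular smooth muscle they favour proliferation.

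The mature sequences are shown with the seed (bases 2 to 8) in capitals, which miR-126a-3p does not share with the others. They are RefSeq sequences on GRCm38.p6, and 3 of the 4 miRNAs were matched by name.
miR-126a-3p: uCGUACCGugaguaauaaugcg
miR-221-3p: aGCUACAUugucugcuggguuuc
miR-222-3p: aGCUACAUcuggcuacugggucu
miR-1928: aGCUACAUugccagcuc
miR-221-3p and miR-222-3p share the seed GCUACAU and begin with the same 8 bases. They carry the same base at 11 of 23 positions when aligned from their 5′ ends without gaps. Among the 1738 mature mouse sequences in the table, this seed occurs in 3, the other being miR-1928. The seed of miR-126a-3p, CGUACCG, occurs in 1, its own.

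The precursors are shown with the 3p arm in capitals, to place these miRNAs in the genome.
Mir126a: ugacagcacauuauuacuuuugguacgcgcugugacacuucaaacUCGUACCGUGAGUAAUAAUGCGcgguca
Mir221: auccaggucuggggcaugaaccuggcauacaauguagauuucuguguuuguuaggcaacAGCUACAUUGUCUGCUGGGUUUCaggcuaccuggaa
Mir222: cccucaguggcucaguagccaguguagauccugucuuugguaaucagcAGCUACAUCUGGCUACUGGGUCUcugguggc
The Mir126a hairpin is annotated on the plus strand at chr2:26591357-26591429, inside the span of Egfl7 at chr2:26581083-26592682. The 3p arm is made from bases 46 to 67 of the hairpin. The Mir221 hairpin is annotated on the minus strand at chrX:19146294-19146388 and the Mir222 hairpin, on the same strand, at chrX:19146893-19146971. Between both hairpins lie 504 bases.

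None of the 4 miRNAs differed between MI and sham hearts at an adjusted p of 0.05 in limma, a linear model with variances moderated across all 1908 mature probe sets and Benjamini-Hochberg adjustment over them. Of all mature probe sets, 10 were higher in MI hearts, which is 0.524%, and 0 were lower, which is 0%. At an unadjusted p under 0.05 there were 120. The 4 members had adjusted p from 0.865 to 0.972, and the lowest unadjusted p among them was 0.118, for miR-222-3p. The intervals given below show what size of difference 4 hearts per group leave possible. In no member did all MI hearts lie on one side of all sham hearts. Among all mature probe sets they did in 4.14% (2.88% with MI higher and 1.26% with MI lower). With only 4 members, this does not set them apart from the rest. Hearts, as labelled, were the replicates in all tests.

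Array-wide readings were as follows. The deposited values are log2 intensities, so that 1 unit is a doubling. The 17 dim spike-in controls, which give the background, lay between 0.789 and 2.06. The 5 bright spike-in controls averaged 15.27 ± 0.025 in MI hearts and 15.23 ± 0.013 in sham hearts (SD, n = 4 each). Their difference (MI minus sham) was 0.043 (exact permutation test, p = 0.0571). The median difference (MI minus sham) was -0.0039 over all mature probe sets and -0.11 over the 271 whose mean was 5 or more. Of these 271, 166 had a lower mean in MI hearts. Only the 4 identifiers above are paired with miRNA names in the sources used here, so markers of heart muscle, smooth muscle, leukocytes and blood were not examined, and the share of each cell type in the samples is unknown.

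**Figure D1:**
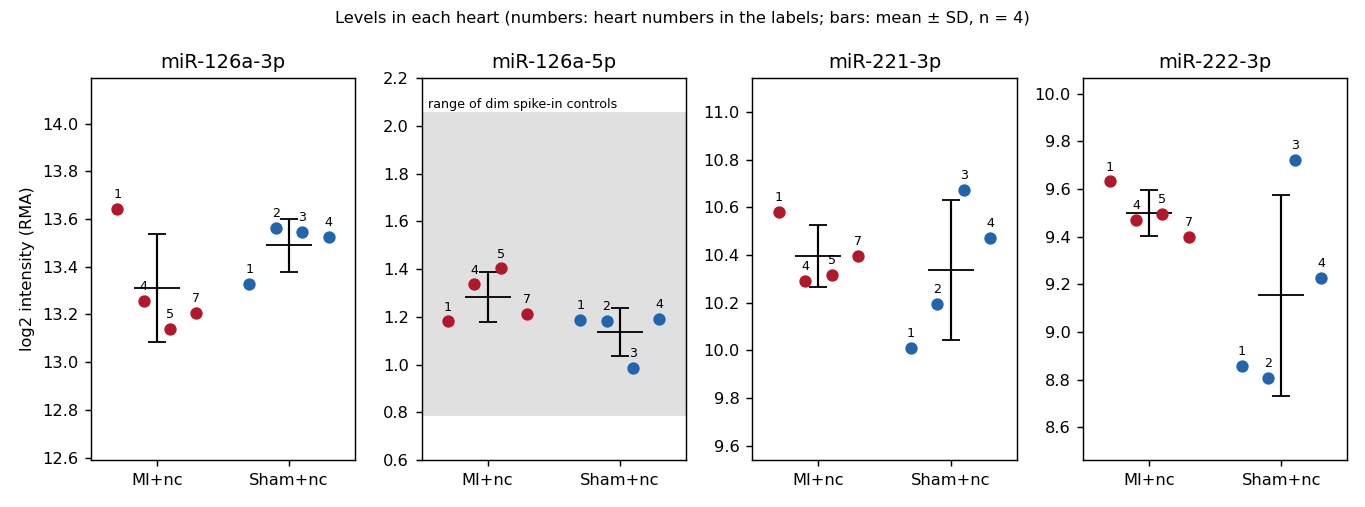
Log2 intensity of the 4 miRNAs in each heart, with MI+nc on the left and Sham+nc on the right of each panel. Bars are mean ± SD (n = 4) and the small digits are heart numbers. The panels have separate y axes, and the grey band in the miR-126a-5p panel is the range of the dim spike-in controls, 0.789 to 2.06, which holds all 8 of its values.

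miR-126a-3p was bright in all 8 hearts and its group means differed by an amount within the spread between hearts. It read 13.64, 13.26, 13.14 and 13.21 log2 units in MI hearts 1, 4, 5 and 7, against 13.33, 13.56, 13.55 and 13.53 in sham hearts 1 to 4. MI heart 1 gave the highest of the 8 values, while the other MI hearts lay below every sham heart, so the groups overlapped through 1 heart. The mean was 13.31 ± 0.226 in MI hearts and 13.49 ± 0.110 in sham hearts (SD, n = 4 each).

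The difference for miR-126a-3p was -0.18 log2 units ± 0.127 (standard error; limma, adjusted p = 0.904), and its 95% interval ran from -0.47 to 0.11. As a ratio of MI to sham this is 0.883-fold, with an interval from 0.721 to 1.08. Without MI heart 1 the difference was -0.29 (limma, adjusted p = 0.432), and after quantile normalization of all 8 arrays it was -0.05 (limma, adjusted p = 0.968). With the heart number as a block, which leaves 1 residual degree of freedom, it was 0.024 (limma, adjusted p = 0.999). Relative to the median of the 271 bright probe sets the difference was -0.07, and 113 of the 271 had a difference as low or lower. In tissue RNA of this kind, fewer endothelial cells and less of the miRNA per cell cannot be told apart.

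miR-126a-5p, the other arm of the same precursor, was not measured above background. Its values were 1.18, 1.34, 1.40 and 1.21 log2 units in MI hearts 1, 4, 5 and 7, against 1.19, 1.18, 0.984 and 1.19 in sham hearts 1 to 4. All 8 lay within the range of the dim spike-in controls, and 0 exceeded their highest value. The fitted difference was 0.15 ± 0.0908 (standard error; limma, adjusted p = 0.882). No fold is given, since both groups were at background. The endothelial label of miR-126a rests here on the 3p arm alone.

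The arms were compared through the difference 3p minus 5p within each array, of which only the change between groups can be read. It was 12.03 ± 0.309 in MI hearts and 12.35 ± 0.174 in sham hearts (SD, n = 4 each), a change of -0.33 (exact two-sided permutation test over 70 assignments, p = 0.114, adjusted p = 0.114 over 2 pairs). The contrast sets a bright probe set against one at background, so it holds no measured change of the 5p arm. Across the 8 arrays the arms had a Pearson r of -0.70 (exact permutation p = 0.0421, adjusted p = 0.0421 over 2 pairs) and a Spearman rho of -0.88 (exact permutation p = 0.00724, adjusted p = 0.0145). Without MI hearts 5 and 7, the arrays farthest from the median of the 3p arm, r was -0.57. After each array was centred on its brightest 25% of mature probe sets, r was 0.24 (exact permutation p adjusted over 2 pairs, 0.577), so the sign depended on the scaling. No relation between the arms can be read from values at background.

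**Figure D2:**
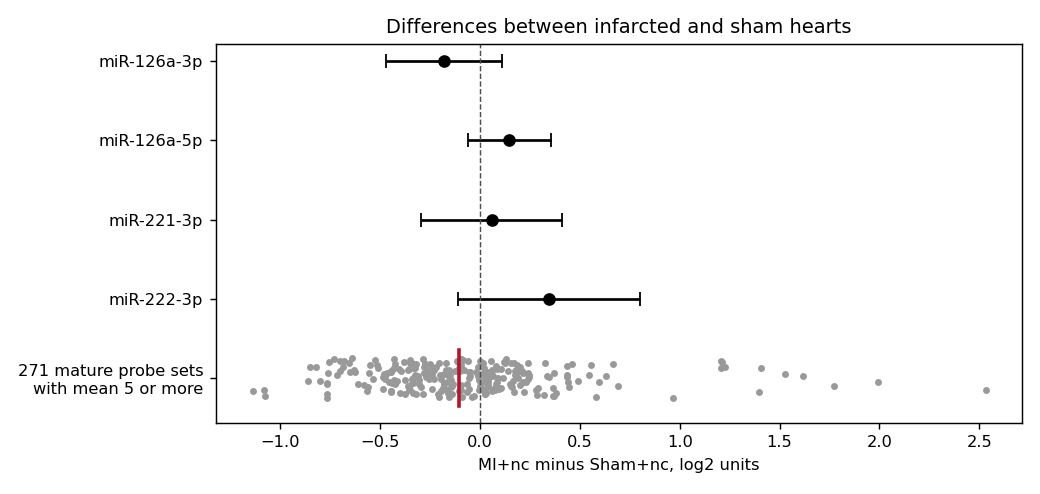
Difference in mean log2 intensity, MI+nc minus Sham+nc, with the 95% interval from limma for each of the 4 miRNAs (black). Grey points are the differences of the 271 mature probe sets that averaged at least 5, spread vertically at random, and the red line is their median of -0.11. All 4 intervals include 0, and that of miR-222-3p, from -0.11 to 0.80, is the widest.

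miR-221-3p was well above background in all 8 hearts, and its group means differed by less than the spread between hearts. It read 10.58, 10.29, 10.32 and 10.40 log2 units in MI hearts 1, 4, 5 and 7, against 10.01, 10.19, 10.67 and 10.47 in sham hearts 1 to 4. The MI values all lay inside the span of the sham values, with sham hearts 1 and 2 below every MI heart and sham heart 3 above. The mean was 10.40 ± 0.131 in MI hearts and 10.34 ± 0.293 in sham hearts (SD, n = 4 each).

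The difference for miR-221-3p was 0.06 log2 units ± 0.153 (standard error; limma, adjusted p = 0.972), and its 95% interval ran from -0.29 to 0.41. That is 1.04-fold, with an interval from 0.816 to 1.33. Without sham heart 1 the difference was -0.05, without MI heart 1 it was -0.0026, and without sham heart 3 it was 0.17, so single hearts set its sign. After quantile normalization it was 0.21 (limma, adjusted p = 0.833). Relative to the median of the 271 bright probe sets it was 0.17.

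miR-222-3p had the largest difference of the 4, and most of its spread was among sham hearts. It read 9.63, 9.47, 9.50 and 9.40 log2 units in MI hearts 1, 4, 5 and 7, against 8.86, 8.81, 9.72 and 9.23 in sham hearts 1 to 4. Of the sham hearts, 3 lay below every MI heart and sham heart 3 lay above every MI heart. The mean was 9.50 ± 0.097 in MI hearts and 9.15 ± 0.422 in sham hearts (SD, n = 4 each).

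The difference for miR-222-3p was 0.35 log2 units ± 0.198 (standard error; limma, adjusted p = 0.865), and its 95% interval ran from -0.11 to 0.80. That is 1.27-fold, with an interval from 0.927 to 1.74. Without sham heart 3 the difference was 0.54 (limma, adjusted p = 0.258), and without sham heart 2 it was 0.23 (limma, adjusted p = 0.916). Among the 271 bright probe sets, 32 had a difference as high or higher, miR-222-3p included. Relative to their median the difference was 0.45.

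miR-221-3p and miR-222-3p were then set against each other within arrays. The difference miR-221-3p minus miR-222-3p was 0.948, 0.820, 0.821 and 0.996 log2 units in MI hearts 1, 4, 5 and 7, against 1.15, 1.39, 0.951 and 1.24 in sham hearts 1 to 4. Of the sham hearts, only sham heart 3 came within the MI values. The mean was 0.896 ± 0.090 in MI hearts and 1.18 ± 0.183 in sham hearts (SD, n = 4 each), a change of -0.29 (exact two-sided permutation test over 70 assignments, p = 0.0571, adjusted p = 0.114 over 2 pairs). The smallest p that these 70 assignments can give is 0.0286, which becomes 0.0571 when doubled for 2 pairs, so with the other pair at 0.114 the adjusted p could not fall under 0.05. Without sham heart 3 the change was -0.36 (exact permutation test, p = 0.0286, the smallest possible with 4 against 3 hearts, adjusted p = 0.0571 over 2 pairs). Since sham heart 3 was the only one to overlap, leaving it out separates the groups by choice of heart, and this p gives no further support.

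**Figure D3:**
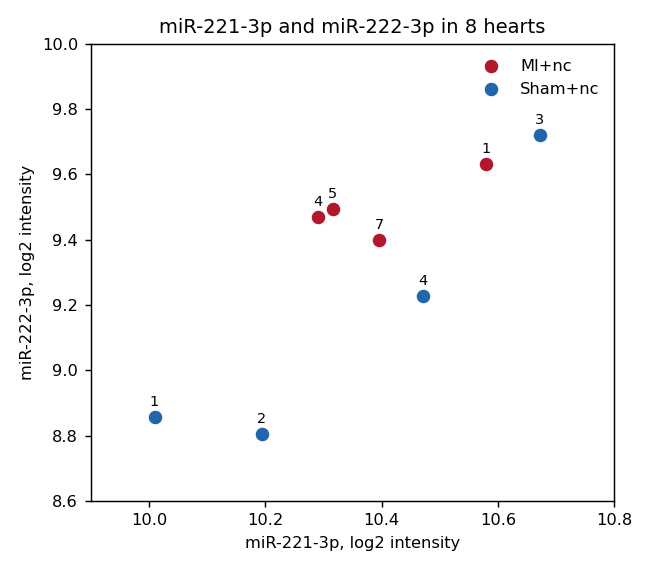
miR-222-3p against miR-221-3p, both in log2 intensity, in 4 MI+nc (red) and 4 Sham+nc (blue) hearts, with heart numbers beside the points. Sham hearts 1 and 2 are at the lower left and sham heart 3 at the upper right, with the MI hearts between them along the miR-221-3p axis.

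Both members of the cluster varied together from heart to heart. Over the 8 arrays Pearson's r was 0.82 (exact permutation p = 0.0119, adjusted p = 0.0237 over 2 pairs) and Spearman's rho 0.76 (exact permutation p = 0.0368, adjusted p = 0.0368). With group means subtracted, r was 0.90 (permutation of the centred values, p = 0.00265, which is approximate). It was 0.73 within the 4 MI hearts and 0.93 within the 4 sham hearts, groups too small to test. Without sham hearts 1 and 3, which are farthest from the median of miR-221-3p, r was 0.63. Without sham heart 1 alone r was 0.73 (exact permutation p = 0.0558 before and after adjustment). Without sham heart 3 alone it was 0.77 (exact permutation p = 0.0444, adjusted p = 0.0575, a value set by the arms of miR-126a in the same family).

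Other probe sets tracked these miRNAs as closely. Among the 270 other mature probe sets that averaged at least 5, miR-222-3p was number 16 in order of its r with miR-221-3p, and miR-221-3p was number 6 in order of its r with miR-222-3p. The median r was 0.31 for miR-221-3p and -0.01 for miR-222-3p. The highest r with miR-221-3p was 0.95, with MIMAT0000653_st, and the highest with miR-222-3p was 0.92. For miR-126a-3p the highest r was 0.96, with MIMAT0000128_st, against a median of 0.30. These are descriptions over the same 8 arrays, which share their normalization, and the identifiers other than the 4 are not paired with names.

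The controls for hybridisation, 15 probe sets for the bacterial genes bioB and bioC, moved with miR-221-3p and miR-222-3p among sham hearts. Their mean was 11.35, 11.56, 11.66 and 11.38 log2 units in MI hearts 1, 4, 5 and 7, against 11.15, 11.11, 11.87 and 11.61 in sham hearts 1 to 4. Sham hearts 1 and 2, the lowest in both miRNAs, were lowest in the controls, and sham heart 3 was highest. The group means of the controls were 11.49 ± 0.147 in MI hearts and 11.44 ± 0.367 in sham hearts (SD, n = 4 each; exact permutation test, p = 0.857).

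Over the 8 arrays the controls had a Pearson r of 0.78 with miR-222-3p (exact permutation p = 0.0246, adjusted p = 0.0737 over 3 miRNAs) and a Spearman rho of 0.69 (exact permutation p = 0.0694, adjusted p = 0.172). With miR-221-3p, r was 0.69 (exact permutation p = 0.0570, adjusted p = 0.0855) and rho 0.62 (exact permutation p = 0.115, adjusted p = 0.172). With miR-126a-3p, r was -0.09 (exact permutation p = 0.830, adjusted p = 0.830) and rho -0.36 (exact permutation p = 0.389, adjusted p = 0.389). With group means subtracted, r was 0.87 for miR-222-3p (permutation of the centred values, approximate p = 0.00387, adjusted p = 0.0116 over 3 miRNAs), 0.69 for miR-221-3p (adjusted p = 0.0898) and -0.04 for miR-126a-3p (adjusted p = 0.921). The relation of miR-222-3p to the controls thus passed only in this approximate test, which pools both groups although their r differed, as given next. None of the 3 passed over the values as deposited.

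Without sham hearts 2 and 3, which are farthest from the median of the controls, r was 0.53 for miR-222-3p, 0.43 for miR-221-3p and -0.20 for miR-126a-3p. In the 4 sham hearts r was 0.98 for miR-222-3p and 0.95 for miR-221-3p, and in the 4 MI hearts it was -0.23 and -0.80. These groups are too small to test. The controls also varied less among MI hearts (SD 0.147) than among sham hearts (SD 0.367). After a straight line on the controls was removed from both, the r of miR-221-3p with miR-222-3p was 0.63 (permutation of the residuals, approximate p = 0.0924). With the controls as a covariate in limma, the difference was 0.30 for miR-222-3p, 0.03 for miR-221-3p and -0.18 for miR-126a-3p, and 0 of the 4 passed. The part of the controls in the sham spread was not tested further.

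**Figure D4:**
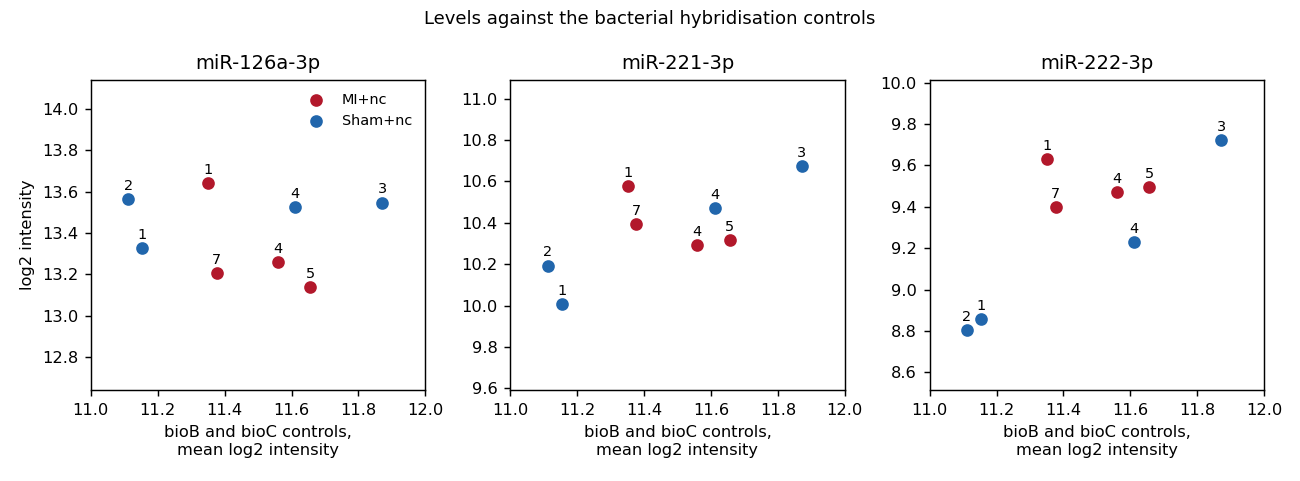
Log2 intensity of miR-126a-3p, miR-221-3p and miR-222-3p against the mean log2 intensity of the bacterial hybridisation controls (bioB and bioC) in 4 MI+nc (red) and 4 Sham+nc (blue) hearts, with heart numbers. In the miR-221-3p and miR-222-3p panels sham hearts with brighter controls lie higher (r = 0.95 and 0.98 over 4 hearts). The MI hearts, whose controls span a narrower range, do not follow this order (r = -0.80 and -0.23). Both groups are too small to test.

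**Figure D5:**
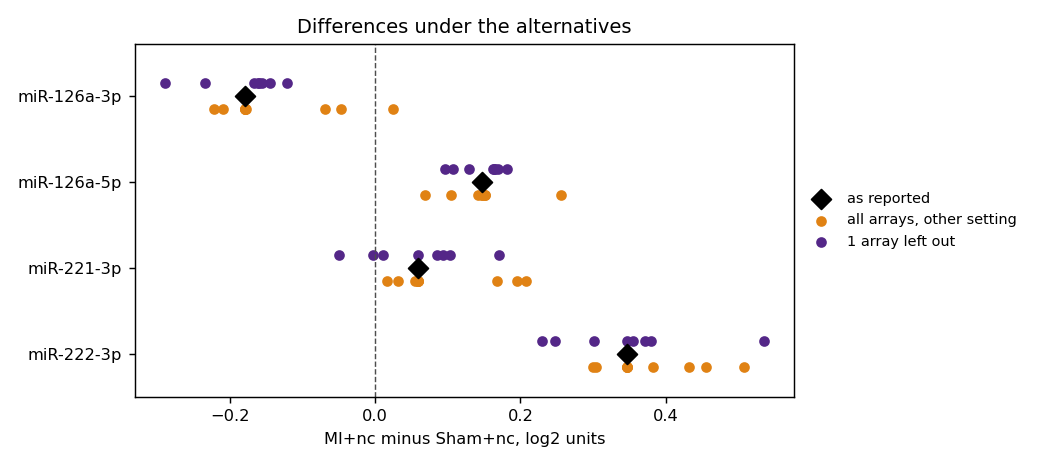
Difference in log2 intensity, MI+nc minus Sham+nc, for each miRNA as reported (black diamond), with other settings on all arrays (orange) and with 1 array left out at a time (purple). miR-222-3p stayed above 0, between 0.23 and 0.54, and miR-221-3p and miR-126a-3p crossed 0 under some of the alternatives. Restriction to bright probe sets, the robust prior with intensity trend and the permutation test leave the difference itself unchanged by construction.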

How the data were processed

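The authors deposited log2 intensities made with RMA (background correction, normalization between arrays and summary per probe set), per the submitters' processing notes. The sources used here name no version and no detection calls. Per the labels' protocols, total RNA was poly(A)-tailed and labelled with biotin. Two-sided tests between groups used limma 3.58.1 (R 4.3.3; lmFit, then eBayes) with the group as sole term, on all 8 arrays and 1908 mature probe sets, with no filter on level and a threshold of 0.05 after Benjamini-Hochberg adjustment. The fit was tested on simulated data. Single values were compared with exact permutation tests (scipy 1.17.1, numpy 2.4.6). The number of arrays limits the precision.

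The members and lists were chosen with earlier results of these data known. Named are the 4 members and, for each, up to 3 bright probe sets (mean of 5 or more) most like it. Only the 4 members' identifiers are paired with names, through the rule that chose them. Lists of vessel miRNAs, cell type markers and same-locus probe sets had been planned and were not analysed here. Alternatives were another scaling, filter, variance model or covariate, the replicate number as a block, and each array left out. The scaling on bright spike-in controls and the residual correlation were added after seeing the data.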

Additional observations from a re-analysis of the deposited data

Results flagged for a closer look

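In 2 of 12 groups of 4 values (the 4 miRNAs and both pair differences, in MI and in sham hearts), 1 heart lay well apart from the other 3. Chance, at about 1 in 20 groups, gives 0.6, and the pair differences reuse the same values. For miR-126a-3p, sham heart 1 read 13.33 log2 units and the other sham hearts 13.53 to 13.56, so that the gap takes up 0.846 of the span. Without it the difference (MI minus sham) was -0.23 in place of -0.18 (limma, adjusted p = 0.749). For miR-126a-5p, sham heart 3 read 0.984 and the others 1.18 to 1.19, so that the gap takes up 0.953 of the span, at background throughout.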

How the results depend on the processing

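None of the 4 miRNAs passed the threshold under any of the 70 alternatives that could be fitted, and miR-126a-5p is too dim for both restrictions to bright probe sets. The difference (MI minus sham) of miR-126a-3p was -0.29 to -0.12 without each array in turn, was -0.05 after quantile normalization, -0.07 after centring on the brightest 25% and -0.22 on the bright spike-in controls. With the replicate number as a block it was 0.024 (limma, adjusted p = 0.999). That block rests on the numbers 1 and 4, leaves 1 residual degree of freedom and called 0 mature probe sets. Deviations of same-numbered hearts from group means had an r of -0.29 (number 1) and -0.04 (number 4) across mature probe sets. With single arrays, pairing stays unknown. Leaving out each array gave 0.10 to 0.18 for miR-126a-5p, -0.05 to 0.17 for miR-221-3p (-0.050 without sham heart 1, -0.0026 without MI heart 1) and 0.23 to 0.54 for miR-222-3p. After centring on the brightest 25%, which moved the median of all mature probe sets from -0.0039 to 0.11, miR-221-3p was 0.17 and miR-222-3p 0.46. After quantile normalization they were 0.21 and 0.43, and with the block 0.19 and 0.51. The change in 3p minus 5p ran from -0.47 to -0.23, and that in miR-221-3p minus miR-222-3p from -0.36 to -0.22, without each array. The 10 alternatives run on each pair kept the sign, though the unmoderated linear fit among them gives the same difference by construction. Passing after adjustment over 2 pairs was out of reach for 1 pair alone, since the smallest exact p of 0.0286 doubles to 0.0571, so the missed thresholds say nothing about stability.

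The r of miR-126a-3p with miR-126a-5p was -0.53 after quantile normalization, -0.56 with group means subtracted, 0.24 after centring and -0.76 to -0.53 without each array. The r of miR-221-3p with miR-222-3p was 0.73 to 0.87 without each array and missed the threshold without sham heart 1 (0.73, exact permutation p = 0.0558 before and after adjustment) or sham heart 3 (0.77, exact permutation p = 0.0444, adjusted p = 0.0575, set by the other pair). It was 0.63 on the residuals from the hybridisation controls. The count of 10 mature probe sets became 20 and 22 in the brightest 50% and 25%, 16 with quantile normalization, 25 after centring, 17 with array weights, 18 with a robust prior and intensity trend, and 7 to 17 without each array (17 without sham heart 3). The causes were not tested. The planned vessel list and same-locus comparisons were not run, for want of names.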
